A study of Mus musculus with 2 samples.

Results

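The genes described here are C-type lectins, Siglecs and paired receptors, surface proteins through which myeloid cells read sugars, lipids and proteins on microbes and on other cells. They were chosen by symbol alone, as every row of the count table whose symbol starts with Clec, Siglec, Lilr, Pira, Pilr, Pirb or Cd300, together with Mrc1, Mrc2, Cd209b, Cd22, Cd33, Lair1 and Cd200r1. This gave 53 of the 20034 genes with a row. They were read in induced macrophages (iMac), which are wild type mouse cells and which, by the title of the series, were made out of fibroblasts by c-Myc alone. There are 2 labelled libraries, a cDNA and an oligo library from the DNBelab C4 droplet system. The 1 matrix analysed here does not say which library a barcode comes from, so it was treated as 1 sample with no replicate and no second group, and no test between conditions could be made.

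The matrix held 6837 barcodes, each with a name of its own, and 160606727 counts. The 86 barcodes under 500 genes or over 15% mitochondrial counts were left out, leaving 6751 cells with a median of 17178 counts and a range of 1001 to 192369. Levels are counts per 1000000 counts (CPM), summed over these cells, with exact Poisson intervals at 95%. Intervals of shares are exact by the method of Clopper and Pearson. Both cover counting error only. All 9 macrophage markers checked were at 10 CPM or more, whereas the fibroblast markers Pdgfra and Pdgfrb summed to 0.829 CPM and Col1a1, Col1a2, Col3a1 and Dcn had no row. Marker lists of other cell types were low apart from 3 of 5 monocyte genes and Prtn3, a granule protease gene of granulocyte progenitors at 96.3 CPM. The summed level was 9.49 CPM for 6 dendritic cell genes, 0.387 CPM for 4 B cell genes and 1.52 CPM for 4 T and NK cell genes.

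C-type lectin receptors carry a fold that in many of them binds sugars through calcium, and Siglecs bind sialic acids, the sugars that end many glycans of the body's own cells. Paired receptors come as close relatives with opposite outputs. The inhibitory ones hold a tyrosine motif (ITIM) that recruits the phosphatases SHP-1, SHP-2 or SHIP-1, and the activating ones have short tails and signal through the adaptors DAP12 (Tyrobp) or FcR gamma (Fcer1g). In macrophages these receptors are known for sensing fungi and mycobacteria, for uptake of glycoproteins, and for setting the threshold of activation. By these known roles 15 members were classed as inhibitory, 17 as activating, 4 as receptors of uptake or adhesion and 4 as secreted or intracellular, and 13 were not classed.

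Levels in the family ranged from no count at all to 186 CPM. There were 17 members at 10 CPM or more, 17 between 1 and 10 CPM and 19 below 1 CPM. The share at 10 CPM or more was 32.1% of members, against 33.2% of all genes with a row, so the family as a whole was near the background. The share at 1 CPM or more was 64.2% of members, against 54.6% of all genes. The 17 upper members carried 90.7% of all member counts, and 4 of them, Clec4d, Cd300a, Lilrb4a and Mrc1, carried 56.0%. At the threshold, Clec16a at 10.01 CPM lay just inside and Clec4a1 at 8.91 CPM just outside. Summed over members, the family took 797 CPM, or 0.0797% of counts.

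**Figure D1:**
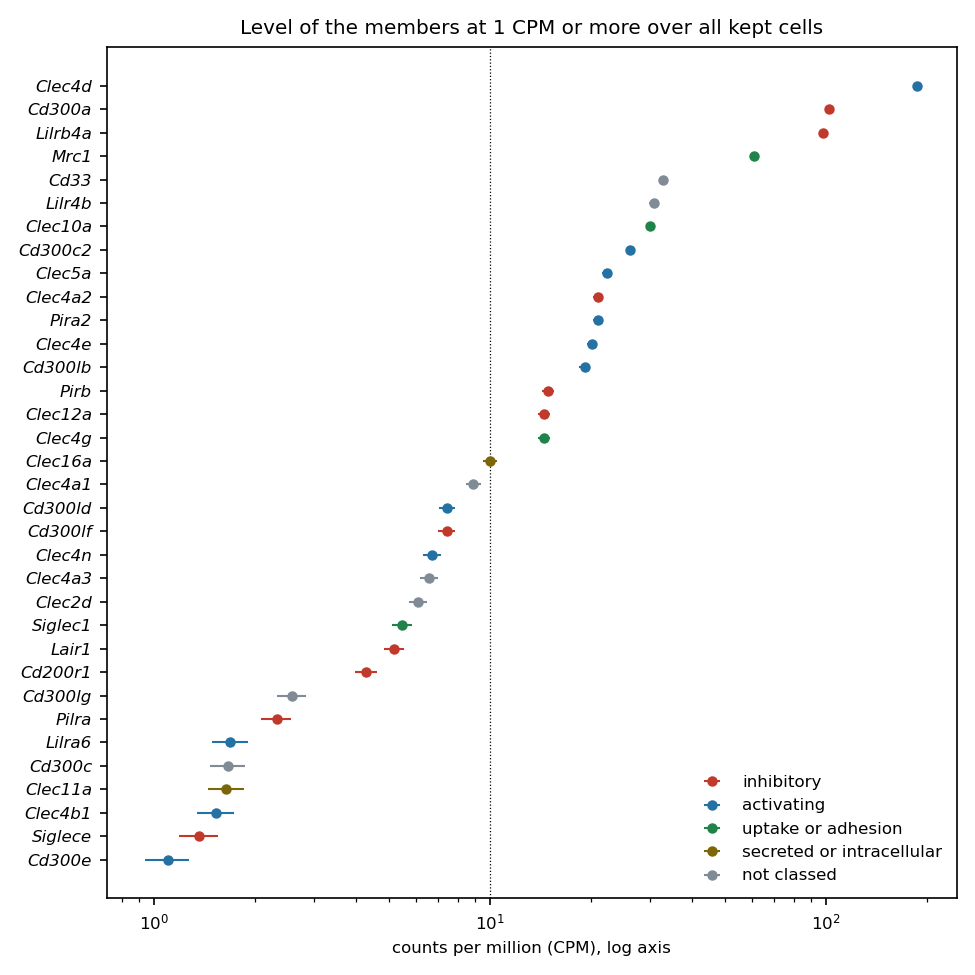
Level of the 34 members at 1 CPM or more over all kept cells, in CPM on a log axis, coloured by known role, with 95% Poisson intervals as bars. The dotted line marks 10 CPM, and 17 members lie at or above it, from Clec16a at 10.01 CPM to Clec4d at 186 CPM.

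Among the activating receptors 6 of 17 reached 10 CPM. Clec4d, which encodes the FcR gamma-coupled lectin MCL that binds the mycobacterial glycolipid trehalose dimycolate, stood at 186 CPM (184 to 188) and was highest of all members on this scale and also per kilobase of exon (116 CPM per kb). It had a count in 69.6% of cells (68.5 to 70.7%), with a median of 4 counts in those cells and up to 66 in 1 cell. Its partner Clec4e, which encodes Mincle, the lectin for the same glycolipid, was at 20.1 CPM and 25.9% of cells. Clec5a, a DAP12-coupled lectin known as a receptor for dengue virus, was at 22.2 CPM and 29.4% of cells. Cd300c2 (26.1 CPM) and Cd300lb (19.1 CPM), activating members of the CD300 family, had a count in 30.4% and 27.8% of cells. Pira2, an activating receptor for MHC class I, was at 20.9 CPM and 26.6% of cells.

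Below 10 CPM on the activating side were Cd300ld at 7.45 CPM and Clec4n, the fungal mannan receptor Dectin-2, at 6.72 CPM. Lilra6 (1.68 CPM), Clec4b1 (1.53 CPM) and Cd300e (1.0975 CPM) followed. Pilrb1 and Pilrb2, the activating partners of Pilra, were at 0.349 and 0.293 CPM. Lilra5 had 13 counts in all cells.

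Among the inhibitory receptors 5 of 15 reached 10 CPM. Cd300a, which binds phosphatidylserine and phosphatidylethanolamine on dying cells, was at 102 CPM (100.1 to 103) and was counted in 65.2% of cells. Lilrb4a, which encodes the inhibitory receptor gp49B, was at 98.2 CPM (96.6 to 99.7) and 58.8% of cells. Clec4a2, the inhibitory lectin DCIR, was at 20.9 CPM (24.6% of cells), Pirb, the inhibitory receptor for MHC class I, at 14.9 CPM (18.1%) and Clec12a, which recognises uric acid crystals, at 14.5 CPM (20.5%). In the range from 1 to 10 CPM were Cd300lf at 7.42 CPM, the entry receptor of murine norovirus, the collagen receptor gene Lair1 at 5.18 CPM and Cd200r1, the receptor for CD200, at 4.28 CPM. Pilra (2.31 CPM) and Siglece (1.36 CPM) were lower still. Cd200, the ligand gene of Cd200r1, had no row.

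Genes of uptake and adhesion were few and mostly well counted. The mannose receptor gene Mrc1 was at 60.9 CPM (59.7 to 62.1) and Clec10a, a lectin for galactose and N-acetylgalactosamine, at 30.001 CPM and 28.3% of cells. Mrc1 was uneven over cells. It had a count in 37.5% of cells, close to the 38.5% of Cd33 at 32.6 CPM, and reached 127 counts in 1 cell against 14 for Cd33. Siglec1, the sialic acid receptor of macrophages also called sialoadhesin or CD169, was at 5.46 CPM and 9.51% of cells. Clec4g, a lectin best known from sinusoidal endothelium of liver and lymph node, was at 14.5 CPM and was counted in 22.6% of cells. Its opposite-strand neighbour Gm16553 had 3 counts.

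Of the unclassed members, Cd33, a Siglec, was at 32.6 CPM. Lilr4b, the gp49A partner of Lilrb4a without an ITIM, was at 30.6 CPM and was counted in 33.0% of cells. Clec4a1, Clec4a3 and Clec2d lay between 6.10 and 8.91 CPM, and Cd300lg (2.57 CPM) and Cd300c (1.66 CPM) below them. Clec16a, which shares the prefix but encodes an intracellular regulator of autophagy, was at 10.01 CPM, and Clec11a, a secreted growth factor, at 1.64 CPM.

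Several members known as markers of B cells, dendritic cells, eosinophils or platelets were close to 0, unlike the endothelial lectin gene Clec4g above. Siglecg, a Siglec of B cells, had no count in kept cells, which allows a level of up to 0.0187 CPM by the limit of 3 counts and up to 0.0230 CPM by the upper end of its Poisson interval. Cd22, another B cell Siglec, had 2 counts, Clec9a of type 1 dendritic cells 3, Siglecf of alveolar macrophages and eosinophils 3, and Siglech of plasmacytoid dendritic cells 16. Clec1b, the platelet lectin CLEC-2, had 60 counts (0.374 CPM), the most of any member under 1 CPM. It overlaps Clec9a on the same strand. The other members below 1 CPM, among them Clec3b, Clec4a4, Clec18a, Clec2l, Clec2g, Clec2h, Clec12b and the Cd300ld copies, had between 1 and 56 counts.

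The rule names 67 symbols in the GENCODE M21 annotation, of which 14 had no row and were not analysed here. They include Mrc2, Cd209b, the Kupffer cell lectin gene Clec4f, Clec1a, Clec14a, Siglec15 and Clec7a. Clec7a, which encodes the beta-glucan receptor Dectin-1, is annotated in M21 as a polymorphic pseudogene, and 11 of the 14 are annotated as protein coding.

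Several members share sequence with a close copy, and how reads that match both were counted is not given in the sources used here. Of the 31-base words in the transcripts of Pira2, 96.7% also occur in other genes, 88.1% in Gm15922, which had no row. The share was 43.8% for Pirb, 49.6% for Lilra6, 55.7% for Lilrb4a and 37.2% for Lilr4b, and 39.1% of the words of Lilrb4a occur in Lilr4b. Pilrb1 and Pilrb2 share 42.8% of their words, and 96.2% of those of Cd300ld4 occur in Cd300ld5. Levels of these genes are therefore uncertain as to which copy they count. Clec4d, Clec4e, Clec5a, Clec4g, Cd300lb and Mrc1 share none. Whether counting used the strand is also not given, and Pilra overlaps Zcwpw1 (0.948 CPM) and Lilrb4a overlaps Gm40645 (1.61 CPM) on the opposite strand.

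Shares of cells depend on depth. Cells were thinned to 1900 counts each, for which 6085 were deep enough and 666 were not. Clec4d then was counted in 26.2% of cells (25.1 to 27.3%), Cd300a in 16.7% and Lilrb4a in 15.1%. Mrc1 followed at 9.29%, and the other members at 10 CPM or more lay between 1.92% (Clec16a) and 5.74% (Cd33). These were the 3 members past 10% of thinned cells (5.66% of members, against 9.78% of all genes). Without thinning 21 members passed 10% of cells (39.6%, against 41.3% of all genes). No cell type known to lack these genes was identified among the cells, so a background share from free RNA was not measured.

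**Figure D2:**
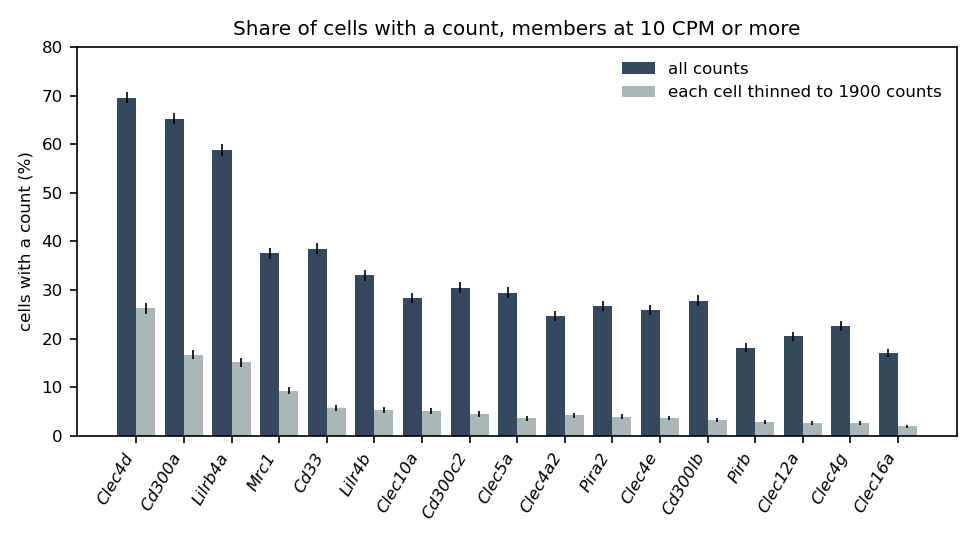
Share of cells with a count for the 17 members at 10 CPM or more, with all counts (dark bars) and with each cell thinned to 1900 counts (light bars), with exact 95% intervals. Clec4d is at 69.6% and 26.2%, and Clec16a at 17.0% and 1.92%.

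A single cell carried counts of a median of 6 members, with 1 at the 10th percentile, 14 at the 90th and 27 in the highest cell. No member was counted in 7.21% of cells (6.61 to 7.86%). At least 1 inhibitory and at least 1 activating receptor were counted together in 71.6% of cells (70.5 to 72.6%), an inhibitory one without an activating one in 8.84% and the reverse in 9.09%. With 1900 counts per cell the share with both was 16.7%, and 29.7% of cells had no member.

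Within families the balance of counts between inhibitory receptors and their partners differed. In the Clec4 group, Clec4a2 and Clec4a4 took 8.92% of counts (8.63 to 9.21%) against Clec4d, Clec4e, Clec4n and Clec4b1, and 5.41% with counts divided by exon length. In the Lilr and Pir group, Lilrb4a and Pirb took 68.0% (67.4 to 68.5%) against Lilr4b, Pira2, Lilra6 and Lilra5, and 64.3% per length. Lilrb4a held 15743 of the 18130 inhibitory counts, and Lilr4b, which is not classed, 4914 of the 8546 partner counts. Lilrb4a shares sequence with Lilr4b, and Lilra6 with Pirb, so reads may count on either side. The interval does not cover this. In the CD300 group, Cd300a and Cd300lf took 67.0% (66.4 to 67.6%) against Cd300c2, Cd300lb, Cd300ld and Cd300e, but 43.0% per length, so which side was larger depends on that scale. Cd300a held 16300 of the 17490 inhibitory counts. Pilra took 78.3% (74.3 to 81.9%) against Pilrb1 and Pilrb2, on 371 counts against 103. Among Siglecs the 4 inhibitory genes had 223 counts, 218 of them from Siglece, and Siglech had 16. Cd33 (5231 counts, not classed) and Siglec1 (876 counts, classed under uptake or adhesion) were outside this group. The labels do not say whether counts come from transcript ends, in which case division by length would not apply.

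The partners that carry these signals were present. Of 14 adaptors and kinases of activating receptors 12 were at 10 CPM or more (median 34.2 CPM), led by Tyrobp and Fcer1g at 5699.7 and 1502 CPM, with Syk, the kinase that both adaptors engage, at 24.1 CPM and Card9, which acts after Syk, at 4.59 CPM. All 9 effectors of inhibitory receptors were (median 41.9 CPM), with Ptpn6, which encodes SHP-1, at 288 CPM, Ptpn11 (SHP-2) at 46.0 CPM and Inpp5d (SHIP-1) at 41.9 CPM. Of 17 genes that make, transfer or remove sialic acid 8 were (median 9.14 CPM), led by Nans at 102 CPM and Cmas, which activates sialic acid for transfer, at 38.5 CPM. Of 12 reported ligand genes with a row 6 were (median 10.4 CPM), with B2m and H2-D1 of MHC class I at 677 and 476 CPM and Pianp, a ligand of Pilra, at 19.3 CPM.

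Related receptors outside the rule also covered a wide range of levels. Of 18 other lectin-like genes with a row 3 reached 10 CPM, Colec12 at 90.9 CPM, Cd302 at 44.7 CPM and Cd93 at 40.3 CPM, and the list median was 0.0935 CPM. Mgl2, the close copy of Clec10a, was at 0.224 CPM. Of 19 other paired receptors 8 did (median 3.53 CPM), among them Trem2 (301 CPM), Fcgr3 (234 CPM) and Sirpa (194 CPM), the receptor for CD47.

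To see how the members vary among cells, cells were grouped by Leiden clustering from which the members and all listed genes had been left out. This gave 8 clusters, numbered by size from 1382 to 344 cells. Genes that vary together with the members stayed in, so differences between clusters are a description of this matrix and not a test. Cluster 5 was shallow, with a median of 1720.5 counts per cell against 12341.5 to 43313 in the others, and its values rest on few counts. No cluster was given a cell type name.

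Cluster 2, led by Ms4a7, Folr2, Fcgr4, Timp2 and Fabp4, genes many of which are known from mature macrophages, held most of the highest values. Of the 34 members at 1 CPM or more, 22 were highest in it (64.7%, against 12.8% of the 10942 genes at 1 CPM or more). The members summed to 1220 CPM in cluster 2 and to between 559 and 821 CPM in the other clusters. A cell of cluster 2 carried a median of 11 members, as did a cell of the deeper cluster 4. The medians of the other clusters ran from 1 in the shallow cluster 5 to 10 in cluster 8. After thinning to 1900 counts the median was 2 in cluster 2 and 1 in every other cluster. The nearest in summed level was cluster 7, led by Malat1 and Neat1, at 821 CPM, where Lilrb4a stood at 121 CPM (116 to 125) and Mrc1 at 79.7 CPM (76.0 to 83.6).

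**Figure D3:**
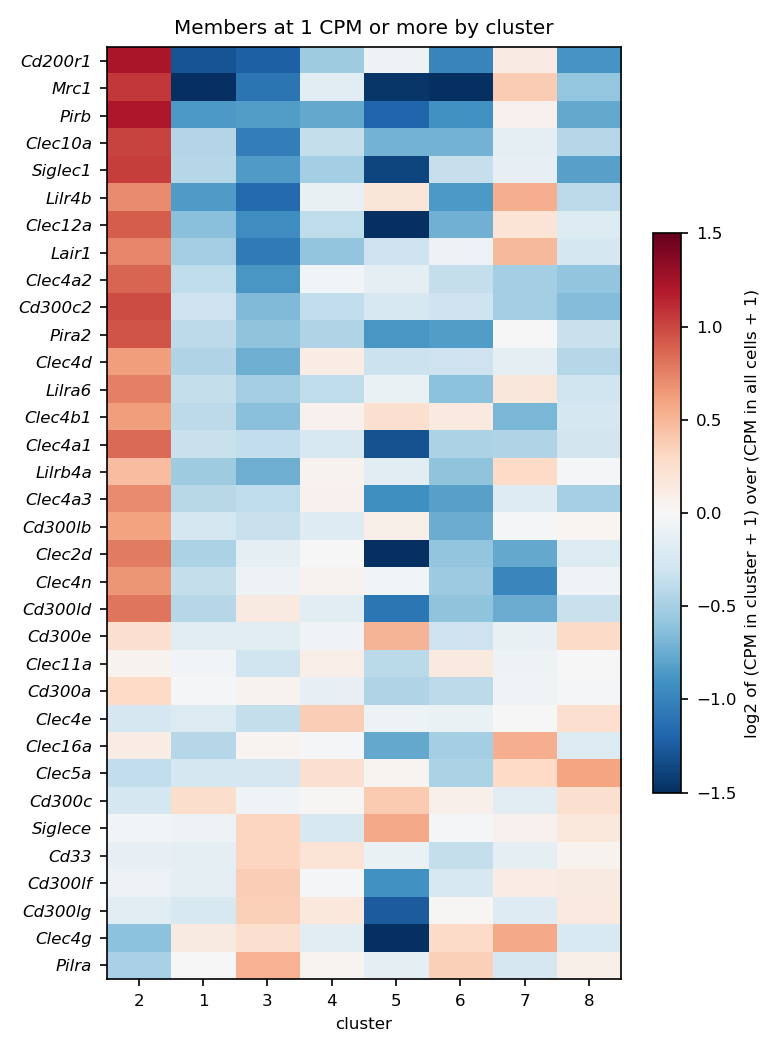
Log2 of the level in a cluster over the level in all cells (1 CPM added to both) for the 34 members at 1 CPM or more, with cluster 2 at the left and genes ordered by the difference between clusters 2 and 3. The upper rows are red in cluster 2, and the lower rows, among them Cd33, Clec4g and Pilra, are not.

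Clusters 2 and 3 were then set against each other, the cluster with the highest Ms4a7 (74.0 CPM, against 2.19 CPM in cluster 3) and the one with the highest Prtn3 (20.05 CPM in cluster 2, against 163 CPM in cluster 3). High Prtn3 was not particular to cluster 3. It lay between 123 and 146 CPM in clusters 1, 5, 6 and 8, and at 81.6 and 86.3 CPM in clusters 4 and 7. Ms4a7 was also low in clusters 1 and 8, at 2.94 and 2.67 CPM. Cluster 3 was led by Camk1d, D130009I18Rik, Tmtc2, Jarid2 and Gphn. Cluster 2 held 1200 cells with a median depth of 24976 counts, and cluster 3 held 852 cells with 17241.5 counts. The median mitochondrial share of counts was 0.932% in cluster 2 and 0.234% in cluster 3, and its part in the differences below was not tested. Of the 34 members at 1 CPM or more, 17 were higher past 2-fold in cluster 2 (50% of them, against 4.55% of all genes tested), 1 was lower (2.94%, against 2.14%) and 16 lay within 2-fold. The median log2 ratio of cluster 2 over cluster 3 was 1.01 over these members and 0.01 over all 10942 genes. A fold counts as past 2 on CPM with 1 CPM added. The other 19 members, all below 1 CPM, were not called.

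Other gene groups moved with this difference, and their part in it was not tested. The 9 macrophage markers, 6 of them past 2-fold, summed to 7300.3 CPM in cluster 2 and 4395 CPM in cluster 3. Ms4a7, the gene by which cluster 2 was chosen, is among the 6, so its difference was set by that choice. Lyz2, within 2-fold, took the largest part of both sums, at 4864 CPM in cluster 2 and 3402 CPM in cluster 3. Of the 9 markers 8 had a positive log2 ratio, and Csf1r did not, at 169 and 173 CPM in the same order. The 5 monocyte genes summed to 76.9 CPM in cluster 2 and 137 CPM in cluster 3. Of these, Ly6c2 had a level of 4.28 CPM in cluster 2, against 68.2 CPM in cluster 3, and Ccr2 stood at 14.0 and 29.3 CPM in the same order, whereas F13a1 ran the other way at 58.3 CPM in cluster 2 and 39.6 CPM in cluster 3. The 20 genes of G2 and M phase summed to 660.03 CPM in cluster 2 and 1182 CPM in cluster 3, and the 20 S phase genes to 927 and 1514 CPM in the same order. Gm42418, a transcript at a ribosomal RNA locus, took 5.69% of counts in cluster 2 and 9.91% in cluster 3.

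The inhibitory receptors gave 6 of 10 members higher past 2-fold and 1 lower, with a median log2 ratio of 1.47. Cd200r1 was at 11.4 CPM (10.3 to 12.6) in cluster 2 and 1.27 CPM (0.793 to 1.92) in cluster 3, a log2 ratio of 2.45 that rests on 22 counts in cluster 3. It did not pass 2-fold with a pseudocount of 10 CPM (0.92). Over all clusters it ran from 1.15 CPM in cluster 1 to 11.4 CPM in cluster 2, and cluster 7 came next at 4.76 CPM. Pirb was at 35.9 CPM (33.9 to 38.0) in cluster 2 and 7.88 CPM (6.62 to 9.32) in cluster 3. It lay between 5.99 and 8.32 CPM in all clusters but 2 and 7, and at 15.6 CPM in cluster 7. The intervals of those lower clusters overlapped, so their order was not resolved.

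Lair1 was at 9.29 CPM in cluster 2 and 1.96 CPM in cluster 3, Clec12a at 28.1 and 7.13 CPM and Clec4a2 at 39.0 and 10.9 CPM in the same order. Lilrb4a was at 136 CPM (132 to 139.5) in cluster 2 and 58.9 CPM (55.3 to 62.6) in cluster 3. Its ratio passed 2-fold here but not at clustering resolution 0.3 (log2 ratio 0.79) or with all variable genes in the clustering (0.65). Cd300a behaved otherwise. It was at 125 CPM (121 to 129) in cluster 2 and 105 CPM (100.6 to 110.3) in cluster 3, a log2 ratio of 0.24, and was lowest in cluster 5 at 74.4 CPM and in cluster 6 at 77.3 CPM.

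The single member lower past 2-fold in cluster 2 was the inhibitory receptor gene Pilra, at 1.36 CPM (0.993 to 1.81) in cluster 2 and 3.74 CPM (2.89 to 4.77) in cluster 3. Its log2 ratio of -1.01 lies at the threshold and did not pass it under 6 of the 11 alternatives. Siglece and Cd300lf were within 2-fold, at 1.30 and 6.90 CPM in cluster 2 and at 1.96 and 9.90 CPM in cluster 3.

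The activating receptors gave 5 of 11 members higher past 2-fold and none lower, with a median log2 ratio of 0.94. Clec4d was at 287 CPM (282 to 293) in cluster 2 and 112 CPM (107 to 117) in cluster 3, with cluster 4, led by histone genes, next to cluster 2 at 201 CPM. In thinned cells it was counted in 39.0% of cluster 2 and 18.0% of cluster 3. Cd300c2 was at 52.5 CPM in cluster 2 and 16.2 CPM in cluster 3, and Pira2 at 41.0 CPM in cluster 2 and 13.3 CPM in cluster 3. Lilra6 and Clec4b1 passed 2-fold on 15 and 11 counts in cluster 3.

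Clec4e and Clec5a did not differ in this way. Clec4e was at 16.8 CPM (15.5 to 18.2) in cluster 2 and 15.5 CPM (13.7 to 17.5) in cluster 3, intervals that overlap. It was at 26.3 CPM (24.6 to 28.0) in cluster 4 and 24.1 CPM (21.5 to 26.8) in cluster 8, with overlapping intervals, and the interval of the shallow cluster 5 overlapped both. Clec5a was at 17.0 CPM in cluster 2 and 18.5 CPM in cluster 3, and highest in cluster 8, led by Rflnb and the monocyte chemokine receptor gene Ccr2, at 33.9 CPM (30.9 to 37.2). Clec4e and Clec4d are neighbours on chromosome 6 and their products are known to form a complex, but their levels differed in pattern over the clusters.

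Of the uptake and adhesion genes 3 of 4 were higher past 2-fold. Mrc1 was at 128 CPM (124 to 132) in cluster 2 and 28.1 CPM (25.6 to 30.7) in cluster 3, with its lowest level, 18.7 CPM, in cluster 6. Clec10a was at 61.5 CPM in cluster 2 and 14.1 CPM in cluster 3, and no other cluster exceeded 27.1 CPM. Siglec1 was at 12.3 CPM (11.1 to 13.5) in cluster 2 and 2.59 CPM (1.89 to 3.46) in cluster 3. The fourth, Clec4g, went the other way without passing 2-fold, at 9.11 CPM (8.12 to 10.2) in cluster 2 and 17.3 CPM (15.4 to 19.3) in cluster 3. It passed 2-fold when each cell had equal weight (log2 ratio -1.11) and in thinned cells (-1.78).

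Lilr4b, Clec4a1 and Clec4a3 were the unclassed members higher past 2-fold, Lilr4b at 50.8 CPM in cluster 2 and 13.1 CPM in cluster 3. Clec4a3, at a log2 ratio of 1.09, did not pass at resolution 0.3 (0.94), with all variable genes in the clustering (0.65) or with a pseudocount of 10 CPM (0.53), and Clec4a1 did not with that pseudocount (0.69). Cd33 was the opposite case among the well counted ones, at 29.8 CPM (28.0 to 31.7) in cluster 2 and 41.0 CPM (38.0 to 44.1) in cluster 3, within 2-fold. Over the 8 clusters Cd33 ranged only from 25.2 to 41.0 CPM.

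**Figure D4:**
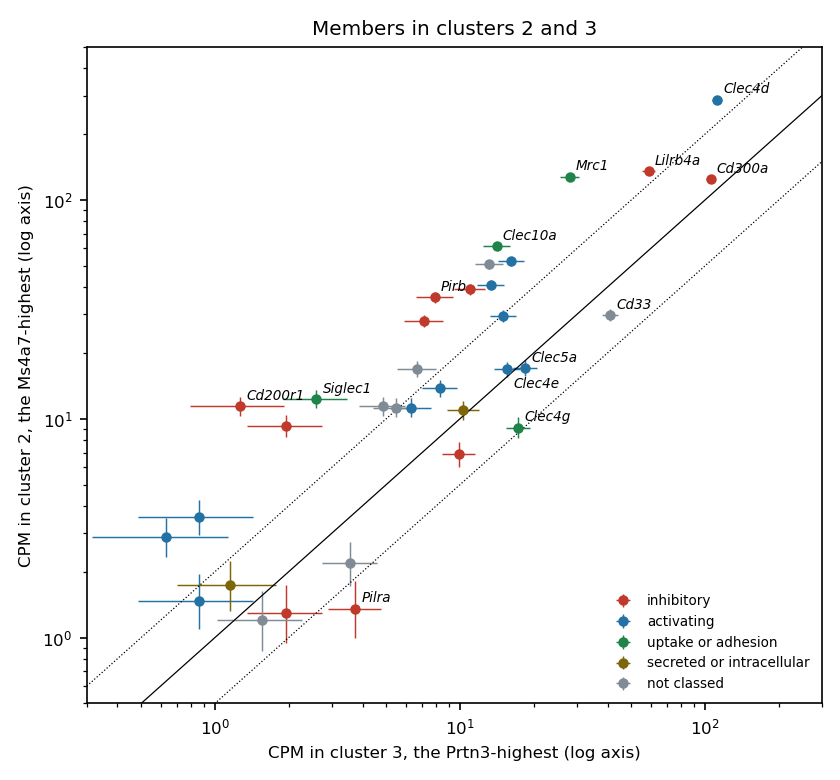
Level of the 34 members at 1 CPM or more in cluster 2 (vertical) against cluster 3 (horizontal), in CPM on log axes with 95% Poisson intervals, coloured by known role. The solid line marks equal levels and the dotted lines 2-fold on plain CPM, without the 1 CPM added for the calls. Clec2d (11.2 and 5.47 CPM) therefore lies just above the upper dotted line though it was called within 2-fold. Mrc1 (128 and 28.1 CPM) and Clec4d (287 and 112 CPM) lie above the upper dotted line, and Cd33 (29.8 and 41.0 CPM) lies below the solid one.

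The signalling partners did not show the members' shift. Of 13 adaptors and kinases at 1 CPM or more none passed 2-fold (median log2 ratio 0.13), with Fcer1g at 1911 CPM in cluster 2 and 1261 CPM in cluster 3. None of the 9 inhibitory effectors did (median -0.21), with Ptpn6 at 260.3 CPM in cluster 2 and 365 CPM in cluster 3, and none of 16 sialic acid genes did (median 0.01). Among other lectin-like genes Cd93 was at 75.9 CPM in cluster 2 and 28.4 CPM in cluster 3 and Cd72 at 9.67 and 0.575 CPM in the same order, the 2 of 4 past 2-fold. The median log2 ratio of these 4 was 0.94. Of 11 other paired receptors Fcgr4 and Fcgr1 were higher past 2-fold and Trem3 lower (median 0.64, with 9 above 0). Of 7 ligand genes Pianp, at 32.3 CPM in cluster 2 and 14.0 CPM in cluster 3, passed 2-fold. The median of the 7 was 0.78, with 6 above 0 and Sap130 below. The MHC class I genes B2m, H2-D1 and H2-K1 were higher within 2-fold (log2 ratios 0.88, 0.84 and 0.78). Pilra, the receptor gene of Pianp, had the opposite sign to Pianp.

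Across the 8 clusters, the 3 most alike pairs of the 136 that the 17 upper members form were Pira2 with Pirb (Pearson r of log2 CPM 0.97), Cd300c2 with Clec4a2 (0.95) and Clec10a with Pira2 (0.95). Every gene of these 3 pairs was highest in cluster 2, and each r rests on 8 points of equal weight. Pirb and Pira2 were lowest in the shallow cluster 5, on 12 and 22 counts. The median over the 136 pairs was 0.53. The clusters share 1 matrix, and Pira2 and Pirb share sequence. The least alike pair was Clec4g with Cd300lb at -0.54.

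Most members lie in a few gene clusters (positions from GENCODE M21 on GRCm38). On chromosome 6 the Clec4 genes run from Clec4a1 to Clec4e over chr6:122921848-123289870, with 8 members. Of the 7 there at 1 CPM or more, 5 were higher past 2-fold in cluster 2, where 4.55% of all genes tested were. Clec4d (chr6:123262111-123275265, plus strand) and Clec4e (chr6:123281789-123289870, minus strand) sit at its end. On chromosome 7 the Pirb to Lilra5 block (chr7:3711409-4243463) had all 4 of its members at 1 CPM or more higher, namely Pirb, Pira2, Lilra6 and Lair1. Both genes of the block on chromosome 10, Lilr4b and Lilrb4a (chr10:51480632-51496611), were higher. In the CD300 block on chromosome 11 (chr11:114890041-115133992) it was 1 of 7, Cd300c2, and in the block from Siglecf to Clec11a on chromosome 7 (chr7:43351341-44306902) 0 of 3. In the block from Clec2h to Clec9a on chromosome 6 (chr6:128662385-129424763) it was 1 of 2, Clec12a. The difference between blocks was not tested. Of the 31-base words of Lilra6, 33.5% occur in Pirb, and 39.1% of those of Lilrb4a occur in Lilr4b. Calls of genes that share sequence within a block may therefore not be separate observations. Lilra6 had 15 counts in cluster 3.

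Promoter sequences of members that were high in cluster 2 and of members that were not are shown to let their letters be compared. The RefSeq promoter table (GRCm38.p6) had an entry for 44 of the 53 members, of which the 250 bases before the first listed start were read. Capitals mark AGGAAG or its reverse complement CTTCCT, the core bound by PU.1, the main transcription factor of macrophages. Mrc1, Pirb and Lilr4b had the largest ratios between clusters 2 and 3 among members at 10 CPM or more with an entry, Cd33 and Clec4g the lowest, and Clec4d and Clec4e are the neighbours described above.
Mrc1: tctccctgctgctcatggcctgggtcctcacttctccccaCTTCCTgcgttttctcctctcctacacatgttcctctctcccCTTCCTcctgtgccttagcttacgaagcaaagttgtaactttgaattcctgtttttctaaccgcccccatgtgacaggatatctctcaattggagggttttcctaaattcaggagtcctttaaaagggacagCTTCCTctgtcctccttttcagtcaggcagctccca
Pirb: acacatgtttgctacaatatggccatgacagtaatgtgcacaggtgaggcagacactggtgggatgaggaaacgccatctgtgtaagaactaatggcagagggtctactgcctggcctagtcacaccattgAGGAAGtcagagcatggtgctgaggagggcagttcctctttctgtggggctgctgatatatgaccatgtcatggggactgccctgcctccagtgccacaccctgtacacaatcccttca
Lilr4b: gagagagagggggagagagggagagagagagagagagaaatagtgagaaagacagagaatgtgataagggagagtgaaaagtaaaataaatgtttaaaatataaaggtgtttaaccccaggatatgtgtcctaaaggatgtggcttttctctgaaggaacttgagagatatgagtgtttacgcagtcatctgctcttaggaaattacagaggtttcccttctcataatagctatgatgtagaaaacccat
Cd33: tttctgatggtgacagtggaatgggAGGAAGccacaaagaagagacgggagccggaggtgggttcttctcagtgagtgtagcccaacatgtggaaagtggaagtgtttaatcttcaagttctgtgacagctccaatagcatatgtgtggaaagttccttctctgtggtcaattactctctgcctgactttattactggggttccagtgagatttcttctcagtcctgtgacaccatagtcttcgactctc
Clec4g: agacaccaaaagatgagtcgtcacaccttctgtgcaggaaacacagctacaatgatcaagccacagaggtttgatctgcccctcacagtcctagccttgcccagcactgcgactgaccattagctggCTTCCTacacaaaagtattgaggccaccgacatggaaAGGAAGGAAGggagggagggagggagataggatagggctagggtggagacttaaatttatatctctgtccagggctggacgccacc
Clec4d: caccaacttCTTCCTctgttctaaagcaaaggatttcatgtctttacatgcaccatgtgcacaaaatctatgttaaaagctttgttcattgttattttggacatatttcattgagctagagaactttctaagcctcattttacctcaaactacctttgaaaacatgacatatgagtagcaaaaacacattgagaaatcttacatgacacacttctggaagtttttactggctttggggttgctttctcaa
Clec4e: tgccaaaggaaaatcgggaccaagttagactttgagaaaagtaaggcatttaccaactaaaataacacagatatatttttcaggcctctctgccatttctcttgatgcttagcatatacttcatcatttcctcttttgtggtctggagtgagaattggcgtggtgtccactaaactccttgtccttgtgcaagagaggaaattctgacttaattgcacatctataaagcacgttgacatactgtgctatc

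These stretches lie at chr2:14229164-14229413 (plus strand) for Mrc1, chr7:3720383-3720632 (minus) for Pirb and chr10:51480362-51480611 (plus) for Lilr4b. Those of Cd33 and Clec4g lie at chr7:43533172-43533421 and chr8:3720652-3720901 (both minus), and those of Clec4d and Clec4e at chr6:123261857-123262106 (plus) and chr6:123289872-123290121 (minus). Mrc1 and Clec4g held 3 matches each, Pirb, Cd33 and Clec4d 1 each, and Lilr4b and Clec4e none. On either strand AGGAAG occurred in 75% of the 44 member promoters, against 29.2% of the 27025 promoters in the table. It was in 10 of the 13 of members higher past 2-fold in cluster 2 and in 13 of the 15 of other members at 1 CPM or more. TTNNGNAA, the C/EBP pattern, occurred in 61.4% of member promoters, against 36.9% of all. The interferon-stimulated response element occurred in 6 of 44, against 3.04% of all, and TGANTCA, the AP-1 pattern, in 4 of 44, against 6.87%. Matches are descriptions of letters in this window, and base composition was not matched.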

How the data were processed

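Counts were read from the 1 deposited matrix, which holds raw whole-number counts per gene symbol and barcode. Per the file headers, PISA 0.12 wrote it. Cell Ranger and mm10 are named with no role, per the submitters' processing notes. How reads were aligned, annotated and called as cells is not stated in the labels, nor is whether counts are of molecular identifiers. If they are of reads, intervals are too narrow.

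The members, gene lists and rules were chosen with earlier results of these data known. Every member is accounted for: those at 10 CPM or more with level and share, those between 1 and 10 CPM with a level, lower ones by range, and in the pair of clusters those past 2-fold. Members named beyond this rule were chosen after their values were seen. Roles come from general knowledge. CPM is counts per 1000000. Doublets were not called and remain. For clusters, the log of counts scaled to 10000 in each cell was taken, and 2000 variable genes, 30 components, 15 neighbours and resolution 0.5 were used in scanpy 1.11.5 and igraph 0.11.9. A pseudocount of 1 CPM entered every ratio. With 1 sample no p-value was computed. The pooled ratio was tested on simulated data, and each thinned cell was checked to hold 1900 counts. For the least counted member at 10 CPM or more the Poisson interval reached 5.01% to a side. Exon lengths are unions of M21 exons.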

Additional observations from a re-analysis of the deposited data

How the results depend on the processing

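No paired analysis was possible because the matrix is 1 sample. With 50 CPM in place of 10 CPM, 4 members passed, with 5 CPM 25, and under the other alternatives between 16 and 23. The share of all genes was not set beside these counts. After thinning to 1900 counts, 3 members passed 10% of cells in place of 21. Of all genes, 9.78% passed in place of 41.3%. The 17 members higher past 2-fold in cluster 2 were 10 with a pseudocount of 10 CPM, without Cd200r1, Siglec1, Lair1, Clec4a1, Clec4a3, Lilra6 and Clec4b1, and 10 when only members at 10 CPM or more were tested, and between 15 and 20 under the other settings, of which the denominator without ribosomal, mitochondrial and rRNA-locus transcripts and the minimum of 5000 counts per cell were chosen after seeing the data. Of all genes tested, 1.44% were higher with that pseudocount and 3.53% with that filter. Under the other settings the share ran from 2.67% without a filter on low values to 9.31% in thinned cells. The count of 1 lower member, Pilra, was 0 at resolutions 0.3 and 1.0, with all variable genes clustered, with the pseudocount or filter of 10 CPM and with 5000 counts per cell, whereas per-cell means gave 2 lower members and thinned cells 4, which rest on few counts. Of all genes tested, 3.15% were lower with per-cell means and 6.42% in thinned cells. Where no member was lower, the share of all genes ran from 0.192% (resolution 0.3) to 4.09% (resolution 1.0). Pilra passed with per-cell means (log2 ratio -1.19) but was not among the 4 in thinned cells (-0.25). Clec4e, Clec5a, Clec16a, Cd300ld, Cd300lf and Cd300e changed sign under at least 1 setting. The cause of these changes was not tested. The median member level of 2.57 CPM was 4.25 CPM with the denominator without ribosomal, mitochondrial and rRNA-locus transcripts, which multiplies every level by 1.65. With per-cell means the inhibitory share was 66.6% in the Lilr and Pir group and 9.89% in the Clec4 group. With 1 matrix, depth limits members below 1 CPM.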
